A study of Homo sapiens with 6 samples.

Results

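Among the 10 strongest reproducible GSX2 binding regions, 6 had as their nearest protein-coding gene one grouped here as general or non-neural: THADA, PIK3C2G, RASGRP1, KDM4C, MRPL36 and EXOSC2. The regions described here are all those for which 1 of these 6 genes was the nearest protein-coding gene, measured from the strongest summit of each deposited peak to the gene's span in RefSeq on hg38. There were 17 such regions among 15743 in the series, built from 42 peaks of 3 replicates. GSX2 occupancy was profiled by ChIP-seq, the sequencing of immunoprecipitated chromatin, in H9, an established human embryonic stem cell line, differentiated toward progenitors resembling those of the lateral ganglionic eminence (LGE). The cells of genotype TRE3G 2xFLAGGSX2 WT carried a transgene for wild-type GSX2 bearing a doubled FLAG epitope, induced by doxycycline at 100 ng/mL for 12 hours from day 10, and were harvested at day 10.5. The tag was precipitated with the M2 FLAG antibody in 3 replicates, which form the 1 group with values. The 3 input libraries from the same induced cells have no file of values, and cells lacking the transgene were not analysed here, so the part of antibody background in any peak was not tested. Transgenic protein was precipitated, so occupancy by the cells' own GSX2 was not measured.

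GSX2 is a homeodomain transcription factor that specifies progenitors of the LGE, the embryonic source of striatal projection neurons and olfactory bulb interneurons, and it acts largely as a repressor. Homeodomains contact short AT-rich words built around a TAAT core. A region bound far from a start site can act on a gene other than the nearest, so the nearest gene is a label for the position and no evidence of a target. The question was therefore which genes lie around each strong region, and which of them hold GSX2 regions of their own.

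The sequences of the strong regions were not used here, since no genome was at hand, and the sequences below are RefSeq promoter windows (GRCh38.p14, 250 bases before to 50 after a listed start). They are shown because, of 40 such windows of 34 genes around the 6 strong regions, only that of FAM98B was overlapped by a GSX2 region, and that of EXOSC2 belongs to a member gene with a region 586 bases away. Capitals mark TAAT or ATTA, the same core read on either strand. The FAM98B window is chr15:38453877-38454176 and the EXOSC2 window is chr9:130693510-130693809, both on the plus strand.
FAM98B: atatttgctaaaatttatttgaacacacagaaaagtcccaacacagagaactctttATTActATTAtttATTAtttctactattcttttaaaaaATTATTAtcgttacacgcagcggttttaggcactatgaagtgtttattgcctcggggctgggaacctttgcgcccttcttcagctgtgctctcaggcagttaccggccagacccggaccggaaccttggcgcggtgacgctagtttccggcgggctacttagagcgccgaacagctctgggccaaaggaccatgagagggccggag
EXOSC2: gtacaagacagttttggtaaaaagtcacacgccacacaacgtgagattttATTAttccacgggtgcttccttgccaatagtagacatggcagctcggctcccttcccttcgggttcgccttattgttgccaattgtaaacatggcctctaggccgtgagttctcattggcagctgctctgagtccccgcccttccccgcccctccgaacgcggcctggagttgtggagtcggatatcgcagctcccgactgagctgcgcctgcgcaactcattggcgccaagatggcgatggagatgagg
The FAM98B window held 5 matches to the core, overlapping ones counted separately, and the EXOSC2 window held 1. At least 4 matches were found in 7.80% of the 22132 promoter windows of protein-coding genes. That share was not taken over the 846 windows overlapped by a region of at least 1 replicate. Of those 846 windows, 68.4% held the core at least once. The region over the FAM98B window (38453971 to 38454320) shared 206 bases with it, and 2 of the 5 matches lay inside the region. That region was weak, at 6.24-fold in replicate 1 and 7.43-fold in replicate 2, and was not called in replicate 3. SPRED1 and PRDM12 had regions 295 and 790 bases from their windows, and neither window held the core. The palindrome TAATTA was in none of the 40 windows, against 3.40% of all windows of protein-coding genes, and the core in either direction was in 14 of them, against 42.7% of all. Some of these windows overlap one another, so a match can be counted more than once. Short windows at starts say nothing of the sequence under the distant summits.

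The fold enrichment used throughout is the authors' own value for each peak, a linear ratio over the background estimated by the peak caller. Replicates 1, 2 and 3 contributed 9859, 7471 and 9122 peaks from the autosomes and X, with no read counts, so sequencing depth is unknown. Of the 17 regions, 12 held a peak of every replicate, 1 held peaks of 2 and 4 held a peak of 1. Over all merged regions 22.5% held a peak of every replicate. The choice of members fixed this for the strongest region of each gene, and of the other 11 regions 6 held a peak of every replicate. These counts carry no test. The choice also fixed the fold enrichment of the 6 strongest regions, whose values are a description without a test. EXOSC2, the last region inside the 10 strongest, averaged 34.7 ± 4.3-fold, and the next region, nearest to SPINK1, averaged 34.4 ± 13.9-fold (SD, n = 3 for these and all means that follow).

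The 6 strongest regions stood near the top of every replicate. Their single values lay between 27.2 and 46.8-fold, with −log10 q between 81.6 and 177, and their ranks within a replicate's own list lay between 2 and 43. The median peak of the replicates was 7.15, 7.73 and 7.48-fold. Summits of the 3 replicates fell within 2 to 13 bp of each other in 5 of the 6 regions, and within 114 bp in the PIK3C2G region. The median spread was 16 bp over the strongest 10% of regions held by all 3 replicates (353 regions) and 30 bp over all 3537 of them. It was 4 to 10 bp in the other 4 of the 10 strongest regions, so close summits were not particular to these 6.

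**Figure D1:**
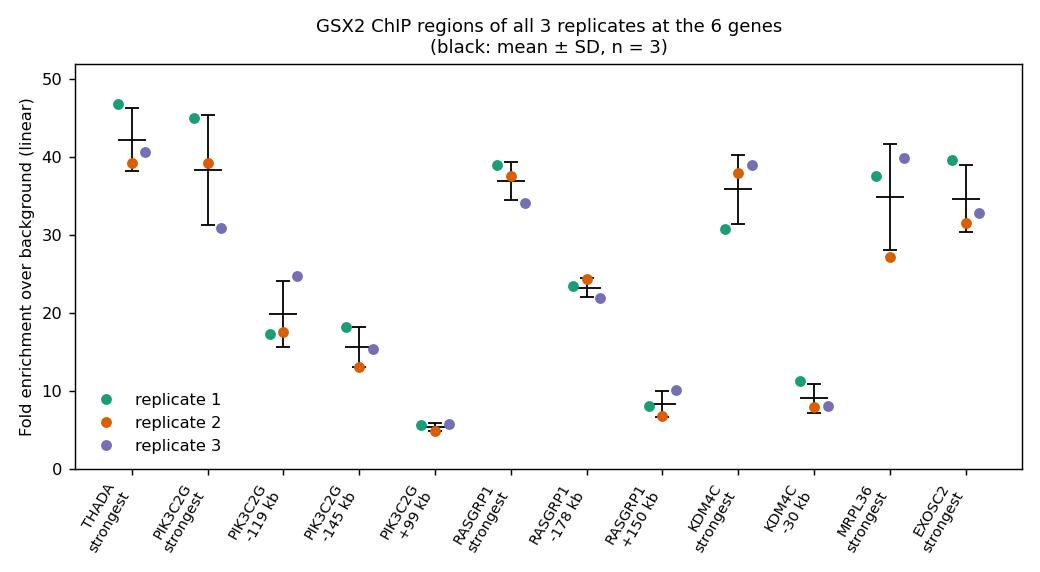
Fold enrichment (vertical axis, linear ratio over background) of the 12 regions held by all 3 replicates, with a point per replicate and the mean ± SD in black; labels give the offset from the strongest region of the same gene. The 6 strongest regions, chosen for their strength, averaged 34.7 to 42.3-fold, and the other 6 averaged 5.43 to 23.3-fold.

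THADA, a large armadillo-type repeat protein gene known from rearrangements in thyroid adenomas, held the strongest of these regions inside its span (chromosome 2, 43484273 to 43484935). It reached 46.8-fold in replicate 1, 39.3-fold in replicate 2 and 40.7-fold in replicate 3, a mean of 42.3 ± 4.0-fold. It was among the 4 strongest peaks of each list. The summit lay 111.5 kb inside the gene from its listed start, which is at the higher-coordinate end because the gene is on the minus strand. No other region of all 3 replicates lay within 500 kb. The 5 others there were each called in 1 replicate, at 4.49 to 10.1-fold, and 2 of them were nearest to THADA, at 6.60-fold in replicate 1 and 6.72-fold in replicate 3.

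The strong THADA region had 8 other protein-coding neighbours within 500 kb, none of them on the list of developmental regulators. They were PLEKHH2 at 152.7 kb, C1GALT1C1L at 190.6 kb, ZFP36L2 at 257.9 kb and DYNC2LI1 at 289.5 kb, then ABCG5 at 321.7 kb, ABCG8 at 354.4 kb, the predicted locus LOC107985876 at 382.1 kb and LRPPRC at 401.7 kb. ZFP36L2 encodes a zinc finger protein that promotes messenger RNA decay, DYNC2LI1 a subunit of the motor of retrograde transport in cilia, ABCG5 and ABCG8 the subunits of a sterol transporter, and LRPPRC a regulator of mitochondrial messenger RNA. PLEKHH2 held a region of 4.49-fold in replicate 3 only, and LOC107985876 held regions of 4.68-fold in replicate 1 and 10.1-fold in replicate 3. The first gene outside the window was PPM1B at 684.3 kb. The nearest gene of the regulator list was SIX3, a homeobox gene of the rostral forebrain, at 1457 kb.

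PIK3C2G, which encodes a class II phosphoinositide kinase, had 4 regions, all held by all 3 replicates. KDM4C also had 4, of which 2 were held by all 3. Both genes are long, with spans of 484 and 455 kb. Over the 2451 genes nearest to at least 1 region of all 3 replicates, the median was 1 such region. The strongest PIK3C2G region (chromosome 12, 18369109 to 18370281) reached 45.0-fold in replicate 1, 39.2-fold in replicate 2 and 30.9-fold in replicate 3, a mean of 38.4 ± 7.1-fold. At 1173 bp it was also the widest of the 6 strongest regions, the others being 472 to 684 bp, and replicates 2 and 3 each had 2 summits in it. Its main summit lay 108.3 kb beyond the listed start of the gene. The next strongest region was 119.2 kb below it in coordinates (18250383 to 18250848), at 17.3, 17.5 and 24.7-fold in replicates 1, 2 and 3, a mean of 19.8 ± 4.2-fold. It lay inside the annotated span but 10.9 kb before the listed start. A region outside the span, 18.3 kb from its lower end, was at 18.2, 13.1 and 15.4-fold (15.6 ± 2.6-fold). The weakest, 99.2 kb above the strongest one, was at 5.63, 4.84 and 5.81-fold (5.43 ± 0.51-fold).

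Only 3 other protein-coding genes lay within 500 kb of the strong PIK3C2G region, the closest at 275.8 kb. PLCZ1, the sperm phospholipase that starts calcium oscillations in the egg, was at 275.8 kb and its span overlaps the higher end of PIK3C2G. RERGL, a Ras-family gene, was at 279.6 kb, and CAPZA3, an actin-capping protein gene of testis, at 368.3 kb. No region of all 3 replicates was nearest to any of these genes in the window. A region 104.5 kb from RERGL was at 10.7-fold in replicate 1 and 14.1-fold in replicate 2, and a region 115.9 kb from CAPZA3 was at 5.15-fold in replicate 2 only. The nearest gene of the regulator list was SOX5, at 5160 kb.

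RASGRP1 encodes a Ras exchange factor activated by diacylglycerol, best known in lymphocytes and studied also in mouse striatum. Its strongest region (chromosome 15, 38668875 to 38669558) reached 39.0-fold in replicate 1, 37.6-fold in replicate 2 and 34.2-fold in replicate 3, a mean of 36.9 ± 2.5-fold, with the lowest coefficient of variation of the 6 (6.75%). It lay 104.4 kb before the listed start, in a stretch of 1015 kb without a protein-coding gene, whose other border is the predicted locus LOC124903470 at 910.6 kb. The long noncoding RNA genes LOC105370775 and LINC02694 were closer than RASGRP1. LOC105370775 was 2.67 kb from the summit.

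A region of 23.5, 24.3 and 22.0-fold in replicates 1, 2 and 3 (23.3 ± 1.2-fold) lay inside RASGRP1, at the opposite end from the start. It was 2.63 kb from that end of RASGRP1 and 3.03 kb from the end of FAM98B, which adjoins it, so the nearest gene there rests on annotated boundaries close to each other. Another region, at 8.05, 6.76 and 10.1-fold (8.32 ± 1.71-fold), was 254.8 kb from RASGRP1 on the far side of the strongest one. All 3 regions assigned to RASGRP1 were held by every replicate.

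The other protein-coding genes within 500 kb of the strong RASGRP1 region were FAM98B at 181.5 kb, which encodes a subunit of the transfer RNA ligase complex, and SPRED1 at 312.0 kb. SPRED1, an inhibitor of Ras and MAP kinase signalling that acts with neurofibromin, was the only regulator-list gene there and the neighbour with most regions. It was nearest to 9 of the 12 other regions in the window, 7 of them within 10 kb of its listed start. Of these 9 regions, 2 were held by all 3 replicates. They reached 8.37, 11.2 and 13.4-fold (11.0 ± 2.5-fold) and 6.33, 9.37 and 6.40-fold (7.37 ± 1.73-fold). The mean of the strong region, which was chosen for its strength, was 3.36 and 5.01 times theirs.

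KDM4C encodes a demethylase of histone lysines. Its strongest region (chromosome 9, 7316357 to 7316877) reached 30.8-fold in replicate 1, 37.9-fold in replicate 2 and 39.0-fold in replicate 3, a mean of 35.9 ± 4.5-fold, with replicate 1 the lowest. The summit was outside the gene, 141.0 kb past its far end and 558.6 kb from its listed start. It lay inside the long noncoding RNA gene LOC105375970. A weaker region of all 3 replicates stood 29.5 kb away, at 11.2, 7.92 and 8.08-fold (9.07 ± 1.86-fold). Inside KDM4C itself there were 2 regions, at 8.02-fold in replicate 1 and 5.82-fold in replicate 2 for the one, and at 6.12-fold in replicate 1 only for the other.

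DMAC1, a mitochondrial complex I assembly gene, was the only other protein-coding gene within 500 kb, at 479.9 kb, and GLDC, a glycine cleavage gene, was the first outside, at 670.9 kb. By listed start DMAC1 (483.2 kb) was nearer than KDM4C. It was nearest to 2 regions in the window, at 6.79-fold in replicate 2 only and at 4.75-fold in replicate 1 only. No gene of the regulator list lay nearer than DMRT2 at 6259 kb.

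MRPL36 encodes a protein of the large mitochondrial ribosomal subunit and had 1 region, the strongest (chromosome 5, 1763632 to 1764103). It reached 37.6-fold in replicate 1, 27.2-fold in replicate 2 and 39.9-fold in replicate 3, a mean of 34.9 ± 6.8-fold, with replicate 2 below the others. Its assignment rested on a small margin, since MRPL36 was 34.5 kb away and NDUFS6, a complex I subunit gene that starts beside it, 37.5 kb. Next came the predicted locus LOC124901163 at 93.4 kb and IRX4, an Iroquois homeobox gene, at 113.5 kb. IRX4 was the only regulator-list gene within 500 kb. It was also nearest to the only other region in the window, which was 2.59 kb from the gene, at 7.81-fold in replicate 1 and 9.08-fold in replicate 3, and was not called in replicate 2.

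The remaining protein-coding neighbours of the MRPL36 region held no GSX2 region of any replicate within the window. They were LOC124901165 at 163.9 kb, the phospholipid acyltransferase gene LPCAT1 at 239.9 kb, the dopamine transporter gene SLC6A3 at 318.4 kb, CLPTM1L at 418.8 kb, LOC124905596 at 461.3 kb, the telomerase reverse transcriptase gene TERT at 468.8 kb and LOC107987433 at 474.6 kb. SLC6A18 at 517.7 kb was the first outside.

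EXOSC2 encodes a subunit of the RNA exosome. Its strongest region (chromosome 9, 130707208 to 130707731) reached 39.6-fold in replicate 1, 31.6-fold in replicate 2 and 32.8-fold in replicate 3, a mean of 34.7 ± 4.3-fold. It lay in a gap of 8.15 kb between 2 spans, 2.59 kb past the end of EXOSC2 and 5.56 kb before the start of the span of ABL1, a tyrosine kinase gene. The predicted locus LOC128092248, inside ABL1, had the nearest listed start, at 6.14 kb. The only start listed for ABL1 in the promoter table was 127.8 kb away, although its span begins much nearer. A region inside EXOSC2, 0.74 kb from its start, was called at 8.47-fold in replicate 3 only.

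Among 13 protein-coding genes within 500 kb of the strong EXOSC2 region, PRDM12 was the only one on the regulator list. PRDM12, a zinc finger gene required for pain-sensing neurons in human and mouse, was 24.5 kb from the strong summit. It had 2 regions of its own, both held by all 3 replicates. The one inside the gene was at 10.3, 9.82 and 8.99-fold in replicates 1, 2 and 3 (9.71 ± 0.67-fold), and the one 4.21 kb outside was at 6.19, 9.06 and 8.58-fold (7.95 ± 1.53-fold). ASS1, an enzyme gene of arginine synthesis at 206.2 kb, was nearest to 4 regions, of which 1 was held by all 3 replicates at 11.5, 8.42 and 6.55-fold (8.84 ± 2.52-fold). ABL1 and FIBCD1, a receptor gene for acetylated sugars at 195.0 kb, were each nearest to 1 region of 1 replicate, at 7.92 and 7.95-fold. FUBP3 (69.1 kb), the neuropeptide gene QRFP (185.2 kb), HMCN2 (273.4 kb), the laminin gene LAMC3 (301.7 kb), AIF1L (389.0 kb), the nucleoporin gene NUP214 (418.1 kb) and the neuronal calcium sensor gene NCS1 (470.2 kb) were nearest to none there.

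**Figure D2:**
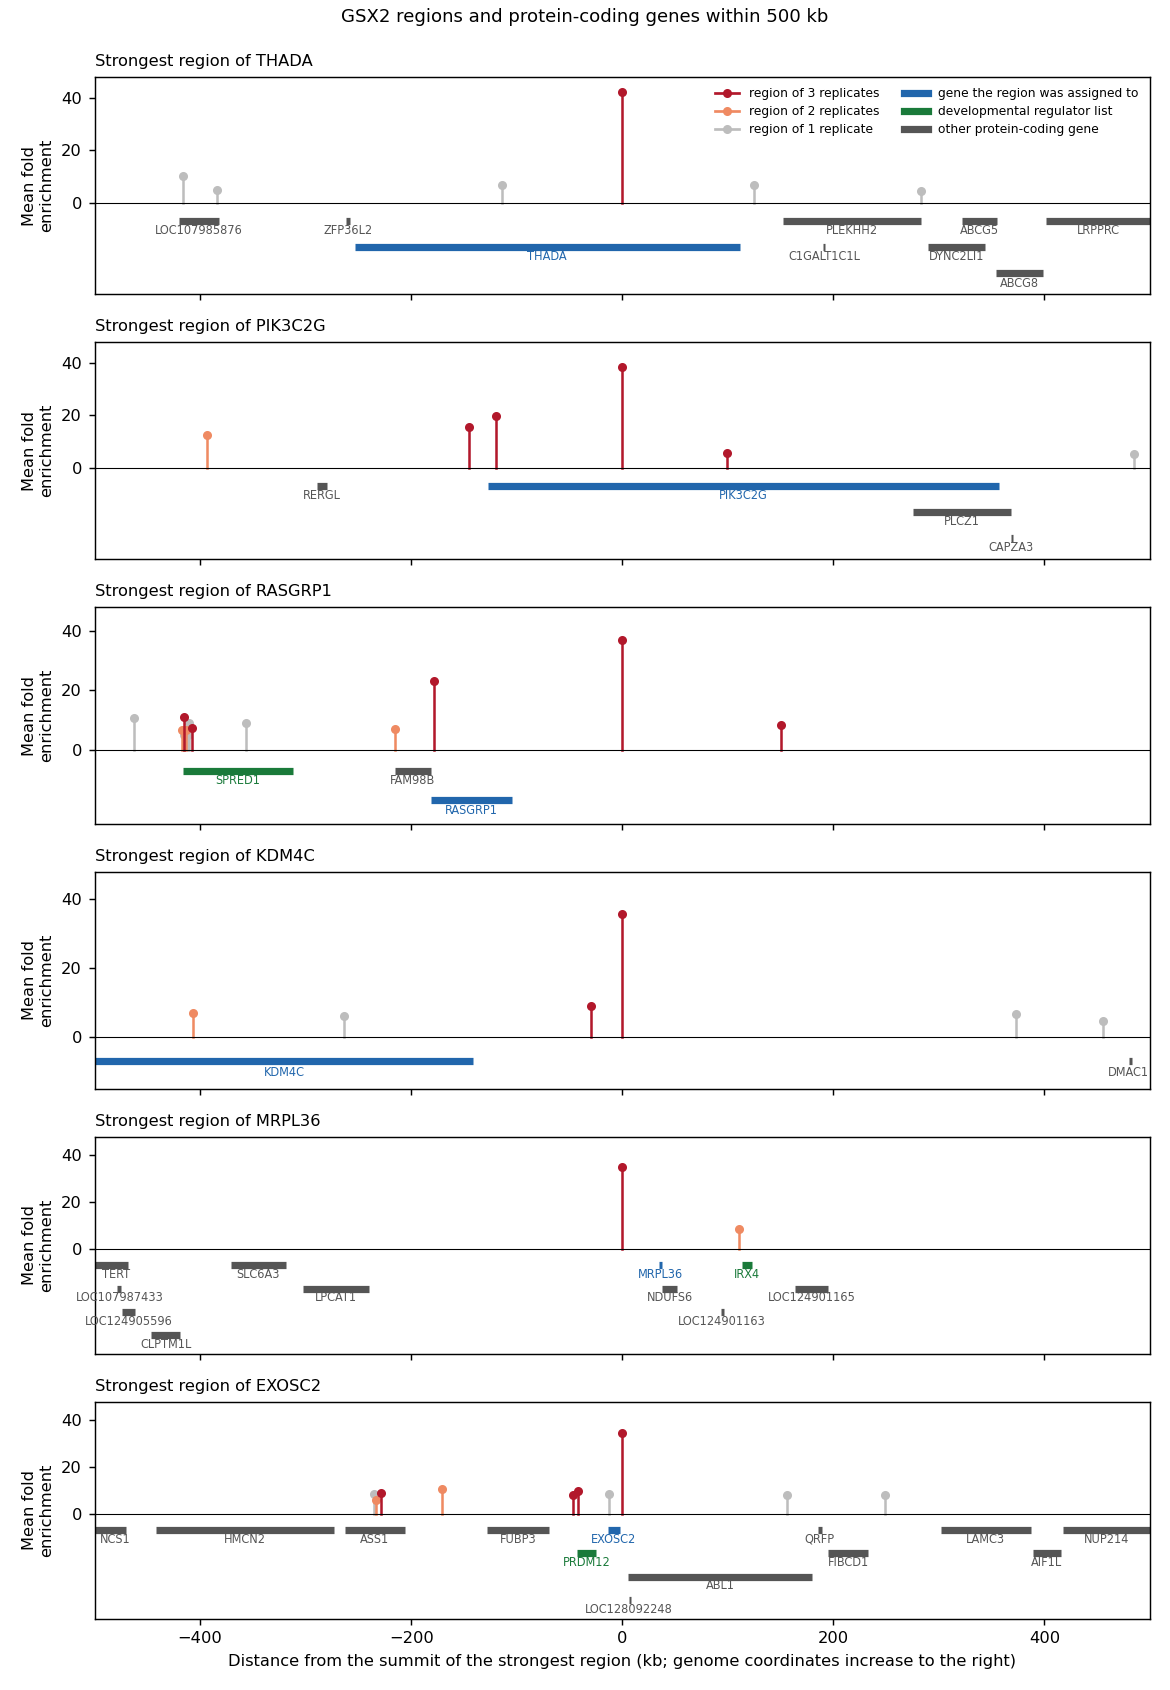
Maps of the 6 windows, with distance from the strongest summit in kb on the horizontal axis and mean fold enrichment on the vertical axis; stems are GSX2 regions coloured by the number of replicates, and bars are protein-coding gene spans, stacked to avoid overlap. The strong summit is inside its gene at THADA and PIK3C2G and outside at the other 4, and regulator-list genes are in the windows of RASGRP1 (SPRED1), MRPL36 (IRX4) and EXOSC2 (PRDM12).

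In all, the 6 windows held 42 protein-coding genes, 6 of them predicted loci, and 37 other GSX2 regions. Of these, 11 were held by all 3 replicates, 8 by 2 and 18 by 1. The 11 averaged 5.43 to 23.3-fold. That they were weaker than the 6 strong regions was fixed by the choice of those 6 from the 10 strongest.

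The label of these genes as non-neural was set when the members were chosen, and no expression value was available to check it. RASGRP1, for example, has been studied also in mouse striatum. A developmental regulator gene lay within 500 kb of 3 of the 6 strong regions, against 18.1% of all regions held by 3 replicates and 22.7% of the strongest 10% of them. The list comprised 380 genes of transcription factor and signalling families. Counting only the 299 transcription factors of this list gave 2 of 6, against 14.7% and 17.0%. With 6 regions chosen by hand, these counts carry no test. The MRPL36 and EXOSC2 windows, which held IRX4 and PRDM12, were also the richest in genes, with 11 and 13, and the part of gene density in the count was not tested. The median over the strongest 10% was 5 genes. For THADA, PIK3C2G and KDM4C no gene of the list was within 1000 kb. The count at 1000 kb was thus again 3 of 6, against 27.4% of all regions held by 3 replicates. Of the strongest 10% of them, 33.4% had a gene of the list within 1000 kb.

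The gene named for a strong region depended on how the nearest gene was defined. By the nearer end of a gene all 6 kept their gene, where 95.7% of all regions held by 3 replicates did. By listed start 4 of 6 did, where 73.2% of all did. KDM4C gave way to DMAC1 and EXOSC2 to LOC128092248. With every gene type admitted, 3 of 6 kept theirs, where 60.6% of all did. RASGRP1, KDM4C and MRPL36 then gave way to the long noncoding RNA genes LOC105370775, LOC105375970 and LOC101929003. With 6 regions these shares carry no test.

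**Figure D3:**
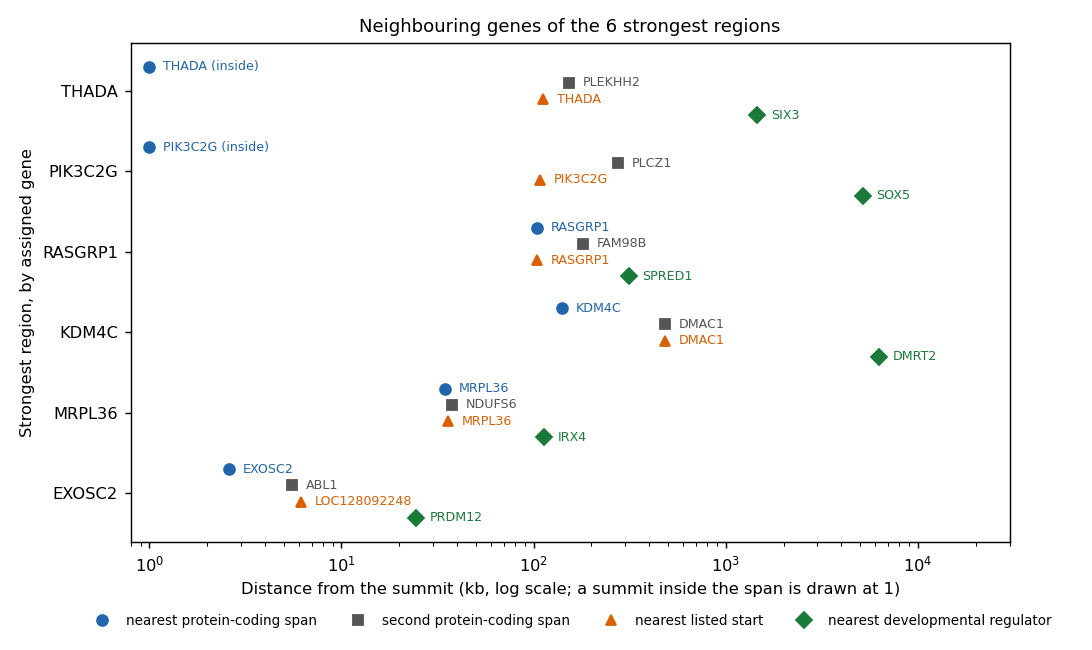
Distance in kb on a log axis from each strong summit to the nearest protein-coding span, the span after that, the nearest listed start and the nearest developmental regulator gene, with names beside the points; a summit inside a span is drawn at 1. MRPL36 and NDUFS6 are nearly level at 34.5 and 37.5 kb, and the regulator is closest for EXOSC2, at 24.5 kb.

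The 6 regions differed among themselves in their surroundings, with 2 to 13 protein-coding genes and 1 to 12 other regions of any replicate within 500 kb. Over the strongest 10% these numbers ran from 0 to 43 and from 0 to 29. The summit was inside a protein-coding span in 2 of 6, against 51.3% of all regions held by 3 replicates. No other such region was within 500 kb in 2 of 6, THADA and MRPL36, against 24.7% of all. The number of other such regions was 0 to 4, with a median of 1 over the strongest 10% and over all. Among the 4 other regions of the strongest 10, nearest to ADGRL3, PTPRG, WNT9A and TLE4, 3 were inside a span. WNT9A and TLE4, which are themselves on the regulator list, gave those regions 2 of 4 with a regulator gene. None of these contrasts was tested.

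**Figure D4:**
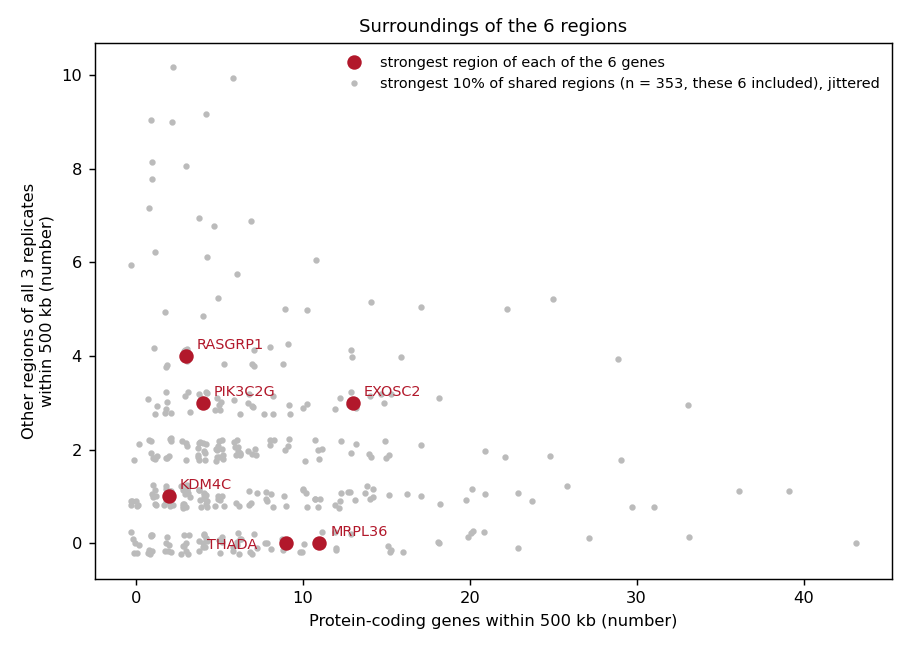
Number of protein-coding genes (horizontal axis) and of other regions held by all 3 replicates (vertical axis) within 500 kb of each strong region; red points are the 6 regions and grey points, jittered, the strongest 10% of regions held by all 3 replicates. The 6 have 2 to 13 genes and 0 to 4 other regions, and they are also counted among the grey points.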

How the data were processed

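The authors deposited 1 narrow-peak list for each ChIP replicate, so peaks were called per replicate, and the fold enrichment in the deposited lists is a linear ratio to the background that the caller estimated. Significance is deposited as −log10 p and −log10 q, and the deposited score, a truncated multiple of −log10 q, was not used. The submitters' processing notes name hg38 as the build and, among tools, MACS3, Bowtie2, Trim Galore, deepTools and SAMtools. Their versions and settings, and whether input was the control, are not stated in the sources used here. The smallest −log10 q was 3.0 in every list.

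Lines of 1 interval were reduced to the summit of highest fold enrichment, peaks on chromosomes 1 to 22 and X were merged over replicates by 1 bp overlap with Python 3.11.15, and the position was the median summit. Genes, spans and starts came from RefSeq tables of GRCh38.p14; 79.2% of protein-coding genes have a listed start there. All protein-coding genes and other regions within 500 kb of each strongest summit were named. The members and lists were chosen with earlier results of these data known. Merging and assignment were tested on simulated data. Alternatives concerned the replicates used, threshold, overlap, summit choice, scale, gene definition and window. The labels do not say whether replicates are separate cultures, so their spread may be partly technical.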

Additional observations from a re-analysis of the deposited data

How the results depend on the processing

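With each replicate left out in turn, the mean fold enrichment of the strongest region ranged from 40.0 to 43.8 for THADA, 35.1 to 42.1 for PIK3C2G, 35.9 to 38.3 for RASGRP1, 34.4 to 38.4 for KDM4C, 32.4 to 38.7 for MRPL36 and 32.2 to 36.2 for EXOSC2. THADA was the highest of the 6 each time and the order of the others changed. With the mean over the summits of a replicate in place of the strongest, PIK3C2G averaged 35.3 ± 8.7-fold, below RASGRP1 and KDM4C. The other regions kept their values. The number of member regions held by all replicates used was 12 to 13, where only 2 replicates were needed. Over all 3 replicates it was 12, and it was 9 with a minimum −log10 q of 10, 11 with an overlap of 50% and 11 by the nearest gene end. As a percentile within its own list the strongest region averaged 99.98 for THADA, 99.85 for PIK3C2G, 99.88 for RASGRP1, 99.86 for KDM4C, 99.76 for MRPL36 and 99.82 for EXOSC2, a change of scale. With all annotated genes, 3 of 6 regions kept their gene. Within 100 kb the number of protein-coding neighbours was 1 for THADA, 1 for PIK3C2G, 0 for RASGRP1, 0 for KDM4C, 3 for MRPL36 and 5 for EXOSC2; within 1000 kb it was 17 for THADA, 7 for RASGRP1, 6 for KDM4C, 24 for MRPL36 and 28 for EXOSC2. A regulator gene lay within 100 kb of 1 of the 6 regions, against 7.80% of all regions held by 3 replicates and 10.8% of the strongest 10%. No paired analysis was possible because only 1 group has values. Depth is unknown, so a peak missing from a replicate is not shown to be absent.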

Other observations

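Across the series, promoter windows overlapped by a GSX2 region held the homeodomain core more often than promoter windows in general. The core TAAT, read on either strand, was in 127 of 166 windows overlapped by a region of all 3 replicates (76.5%) and in 579 of 846 overlapped by a region of at least 1 replicate (68.4%), against 42.7% of all 22132. The palindrome TAATTA was in 20 of the 166 windows (12.0%) and 75 of the 846 (8.87%), against 3.40% of all. Base composition was not matched and no test was run, so its part in these shares was not tested. The 22132 windows belong to 15812 genes and some overlap one another, so they are not independent.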
